A study of Mus musculus with 8 samples.

Results

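Collagens are the most abundant proteins of the extracellular matrix, and each collagen molecule is a rope of 3 chains wound around each other. Fibrillar collagens form the tensile fibers of connective tissue, network-forming collagens build basement membranes, and type VI collagen forms beaded filaments close to cells, including fat cells. In white adipose tissue fibroblasts and preadipocytes are known as the main makers of the fibrillar chains, endothelial and mural cells and adipocytes contribute to the basement membrane, and macrophages are known more for clearing and cutting collagen than for making it. The genes described here are the collagen chain genes of the mouse, that is, all genes whose symbol is made of Col, a type number, the letter a, and a chain number. By that rule 44 genes of the 54146 in the deposited counts were members: 11 of the fibrillar types I, II, III, V, XI, XXIV, and XXVII, 8 of the basement membrane types IV, XV, and XVIII, 6 of type VI, and 19 of other types. The rule reads symbols and no measured value.

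Their RNA was measured in 8 bulk RNA-Seq libraries of macrophages sorted from epididymal white adipose tissue (eWAT), 1 FCGR4+ and 1 FCGR4- library from each of 4 mice. FCGR4 is a receptor for the Fc part of immunoglobulin G. The animals were C57Bl6 mice, which ate a high-fat diet freely for 24 weeks and then were given 30% less food over 2 weeks, a short caloric restriction, so both populations share strain, diet, and weight loss, and were separated by the FCGR4 gate. The libraries also differed in markers of other cell types, as given below. The methods describe males of 8 to 12 weeks for all experiments, and no untreated or lean group belongs to these libraries. The labels do not say whether these 4 mice had a deficiency of the LDL receptor, as others in the study did. The comparison asks how RNA differs between FCGR4+ and FCGR4- macrophages of the same fat pad.

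The sorted cells carried the RNA of their gate. Fcgr4 itself, the gated gene, was at 215, 138, 208, and 236 normalized CPM (counts scaled to the normalized size of each library) in FCGR4+ libraries of mice 1 to 4 and at 48.4, 52.2, 80.9, and 82.7 CPM in FCGR4- libraries. The leukocyte gene Ptprc was at 315 to 663 CPM, while Cd3e, Ms4a1, Ly6g, and Siglecf, genes of the T cells, B cells, neutrophils, and eosinophils that the gate left out, were at 8.55 CPM or lower. These 4 genes were lower in FCGR4+ cells by mean CPM, at 0.823 against 2.65 CPM for Cd3e, 0.969 against 4.43 CPM for Ms4a1, 0.511 against 2.08 CPM for Ly6g, and 1.21 against 4.43 CPM for Siglecf. In edgeR 0 of the 4 passed and 3 had an unadjusted p under 0.05, and DESeq2 called 3 lower (Cd3e, Ms4a1, and Ly6g), where it called 4.87% of all genes lower. All 12 macrophage markers were tested, of which 0 passed the threshold used here in edgeR, 7 had an unadjusted p under 0.05, and 7 were higher in FCGR4+ cells in DESeq2 (192 of all 17095 genes tested). Library totals ranged from 35992794 to 66856746 counts, where 3 counts, the floor used here, equal 0.0439 to 0.0882 CPM. All 8 mast cell markers were lower in FCGR4+ cells in edgeR (1.19% of all genes tested), with sums of 14.5 to 30.4 CPM in FCGR4+ and 389 to 2133 CPM in FCGR4- libraries.

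Collagen RNA was lower in the FCGR4+ than in the FCGR4- library of each mouse. Summed over the 44 chains, it was 751, 300.2, 1275, and 503 CPM in FCGR4- libraries of mice 1 to 4 and 119.9, 174, 166, and 158 CPM in FCGR4+ libraries. The lowest FCGR4- library, of mouse 2, was above the highest FCGR4+ library, also of mouse 2, and the FCGR4-/FCGR4+ ratio was 6.26, 1.72, 7.68, and 3.17 in mice 1 to 4. The sort kept CD45+ (leukocyte) CD11b+ cells. In these bulk libraries, fewer cells of a collagen-making type and less collagen RNA per cell cannot be told apart. Of the 44 genes, 22 had at least 10 counts in at least 4 libraries and were tested with the quasi-likelihood method of edgeR, in which each mouse formed a block. At an adjusted P value under 0.1, taken over all 17095 genes tested, 7 chains were lower in FCGR4+ cells, and 0 were higher: Col1a2, Col3a1, Col5a1, Col5a3, Col4a1, Col6a1, and Col6a2. That is 31.8% of the 22 tested chains, where the same fit called 1.19% of all genes tested lower and 0.0819% higher. Each of the 7 was lower in 4 of 4 mice, with no overlap between the populations.

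The other tested chains leaned the same way without passing. All 22 estimates were negative, against 50.3% of all genes tested, with a median log2 fold change (FCGR4+ over FCGR4-) of -2.11 beside 0.00 for all genes. In 18 of 22 the FCGR4+ library was the lower one in each mouse, a pattern seen in 10.4% of all genes, and in 12 of 22 all FCGR4+ values lay below all FCGR4- values, as for 3.02% of all genes. These counts describe the tested chains and are no test of them, since a chain could enter through the population where it is high. Of the 22, 16 had at least 10 counts in all FCGR4+ libraries, among them all 7 that passed, while Col4a3 had 10 counts in 0 of them and entered through FCGR4- cells alone. An unadjusted p under 0.05 was reached by 16 of 22 chains in edgeR, each lower in FCGR4+ (6.67% of all genes). The paired DESeq2 fit called 16 lower (4.87% of all genes) and 0 higher.

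**Figure D1:**
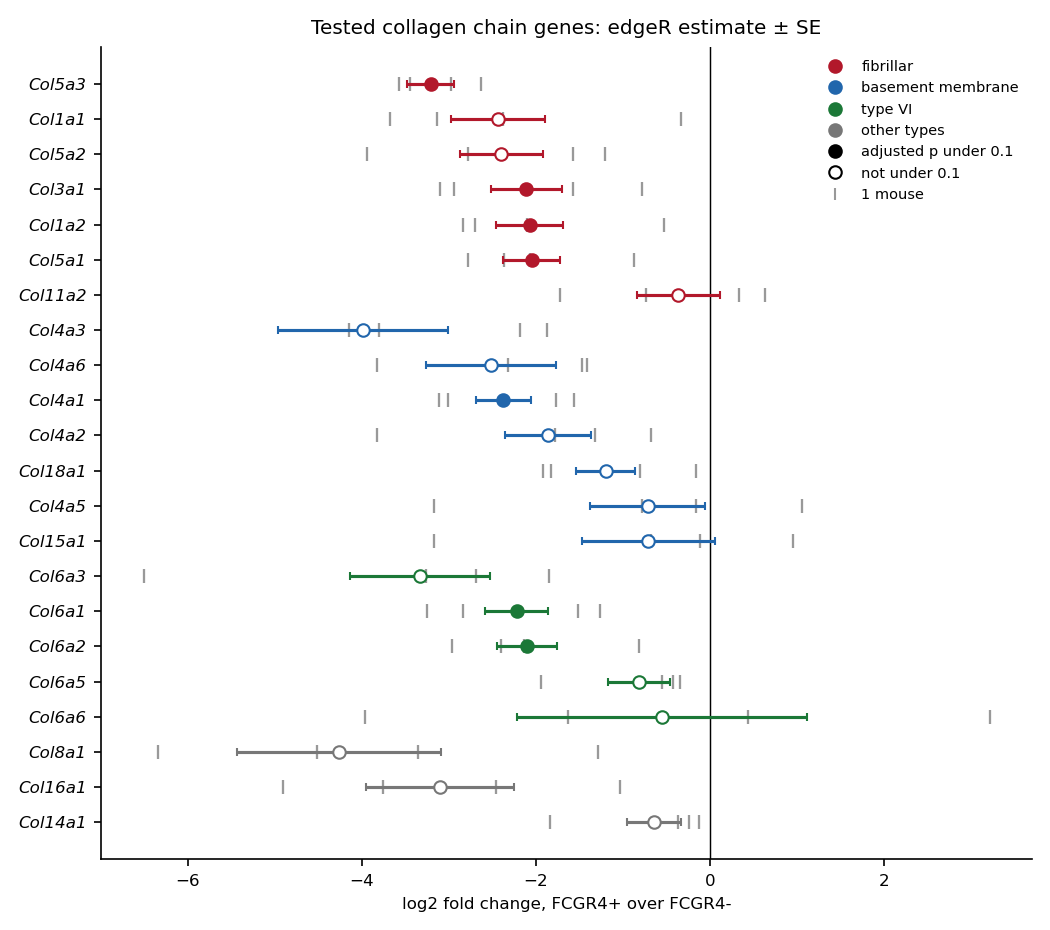
Log2 fold change (FCGR4+ over FCGR4-, horizontal axis) of the 22 tested collagen chain genes, grouped by class. Circles are edgeR estimates with their SE, filled where the adjusted P value was under 0.1, and gray ticks are the log2 CPM ratios of the 4 single mice (prior count of 2). All estimates lie left of 0, and the 7 filled circles lie between -3.21 and -2.05.

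Promoter sequences of 3 fibrillar genes that passed are shown because these genes share a direction and their upstream stretch overlaps no annotated exon. Each is the 120 bases before the RefSeq start of the gene, on the gene's own strand and on build GRCm38.p6 (the same assembly as mm10): chr1:45311418-45311537 on the plus strand for Col3a1, chr2:27886305-27886424 on the plus strand for Col5a1, and chr9:20815068-20815187 on the minus strand for Col5a3. Capitals mark the letters TATAAA, known from the box bound by TBP, and GGGCGG, known from the box bound by SP1 and written CCGCCC when it lies on the other strand.
Col3a1: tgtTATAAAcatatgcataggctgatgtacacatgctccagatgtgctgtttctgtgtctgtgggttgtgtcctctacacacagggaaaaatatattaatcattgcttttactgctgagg
Col5a1: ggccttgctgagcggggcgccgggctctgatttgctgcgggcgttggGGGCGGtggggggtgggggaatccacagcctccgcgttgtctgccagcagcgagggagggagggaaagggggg
Col5a3: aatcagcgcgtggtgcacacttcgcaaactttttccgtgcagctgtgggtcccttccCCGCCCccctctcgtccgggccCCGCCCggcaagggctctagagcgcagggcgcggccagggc
Counted back from the base before the start, TATAAA began at -117 in Col3a1, GGGCGG at -73 in Col5a1, and CCGCCC at -63 and -41 in Col5a3. In 250-base upstream windows, on both strands and with overlaps counted, GGGCGG stood in 57.9% of the 38 windows of 35 collagen chain genes and in 32.7% of all 32851 windows, TATAAA in 13.2% and 12.4%, and CCAAT in 34.2% and 33.8%. A match is a description of letters and not of binding.

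Type I and type III collagen are the main fibrillar pair of loose connective tissue. Col3a1 encodes the only chain of type III collagen (chr1:45311538-45349706, plus strand). It was at 293, 132, 719, and 223 CPM in FCGR4- libraries of mice 1 to 4 and at 34.04, 76.5, 93.7, and 74.8 CPM in FCGR4+ libraries. The populations did not overlap, though the FCGR4- library of mouse 2 was closest to the FCGR4+ ones. The log2 fold change was -2.11 (SE 0.408, adjusted P = 0.0988, edgeR). Col1a2, which encodes the α2 chain of type I collagen (chr6:4504814-4541544, plus strand), was at 69.98, 34.1, 152, and 69.1 CPM in FCGR4- and at 10.7, 23.7, 21.2, and 16.1 CPM in FCGR4+ libraries, with a log2 fold change of -2.07 (SE 0.387, adjusted P = 0.0889, edgeR). Col1a1, which encodes the α1 chain of the same molecule (chr11:94936224-94953042, plus strand), was at 64.3, 27.99, 153, and 58.2 CPM in FCGR4- and at 7.26, 22.2, 11.9, and 11.2 CPM in FCGR4+ libraries. Its populations did not overlap either, yet its FCGR4-/FCGR4+ ratio ran from 1.26 in mouse 2 to 12.8 in mouse 3. Its log2 fold change of -2.44 (SE 0.538, adjusted P = 0.149, edgeR) missed the threshold, and the fit without mouse 2 gave -3.04 with an adjusted P value of 0.0325 in edgeR. Without the mouse block, the adjusted P values in edgeR were 0.127 for Col1a2 and 0.174 for Col3a1, so both calls rested on the pairing, and with RLE in place of TMM scaling that of Col3a1 was 0.102. The fit without the block called 4 of the 22 chains lower (Col4a1, Col5a3, Col6a1, and Col6a2, where 0.275% of all genes were called lower).

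Type V collagen, which sits inside type I fibrils and sets their width, was represented by 3 chains. Col5a3 (chr9:20770050-20815067, minus strand) was nearly even across FCGR4+ libraries, at 0.977, 0.915, 0.973, and 0.913 CPM, against 11.01, 5.85, 11.9, and 7.43 CPM in FCGR4- cells. Its log2 fold change of -3.21 (SE 0.268, adjusted P = 0.00758, edgeR) had the lowest adjusted P value of all members, and its FCGR4-/FCGR4+ ratio was at least 6.40 in each mouse. Col5a1 (chr2:27886425-28039514, plus strand), which encodes the chain that most type V molecules contain, was at 20.97, 7.14, 24.7, and 10.5 CPM in FCGR4- and 3.03, 3.89, 4.77, and 2.47 CPM in FCGR4+ cells. The populations did not overlap, and the log2 fold change was -2.05 (SE 0.327, adjusted P = 0.0585, edgeR). Without the mouse block the adjusted P value of Col5a1 was 0.109 in edgeR. Col5a2 (chr1:45374321-45503282, minus strand) was at 14.5, 4.03, 25.5, and 5.86 CPM in FCGR4- and 2.07, 1.73, 1.63, and 1.95 CPM in FCGR4+ cells. Here too the populations were apart, and the log2 fold change of -2.40 (SE 0.475, adjusted P = 0.103, edgeR) fell just short of the threshold. It lies tail to tail with Col3a1, 24614 bases away. The last fibrillar chain tested, Col11a2, a cartilage chain, was at 0.767 to 2.51 CPM in FCGR4+ and 1.58 to 2.62 CPM in FCGR4- cells, with a log2 fold change of -0.36 (SE 0.482, adjusted P = 0.803, edgeR). It was lower in 2 mice and higher in 2.

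**Figure D2:**
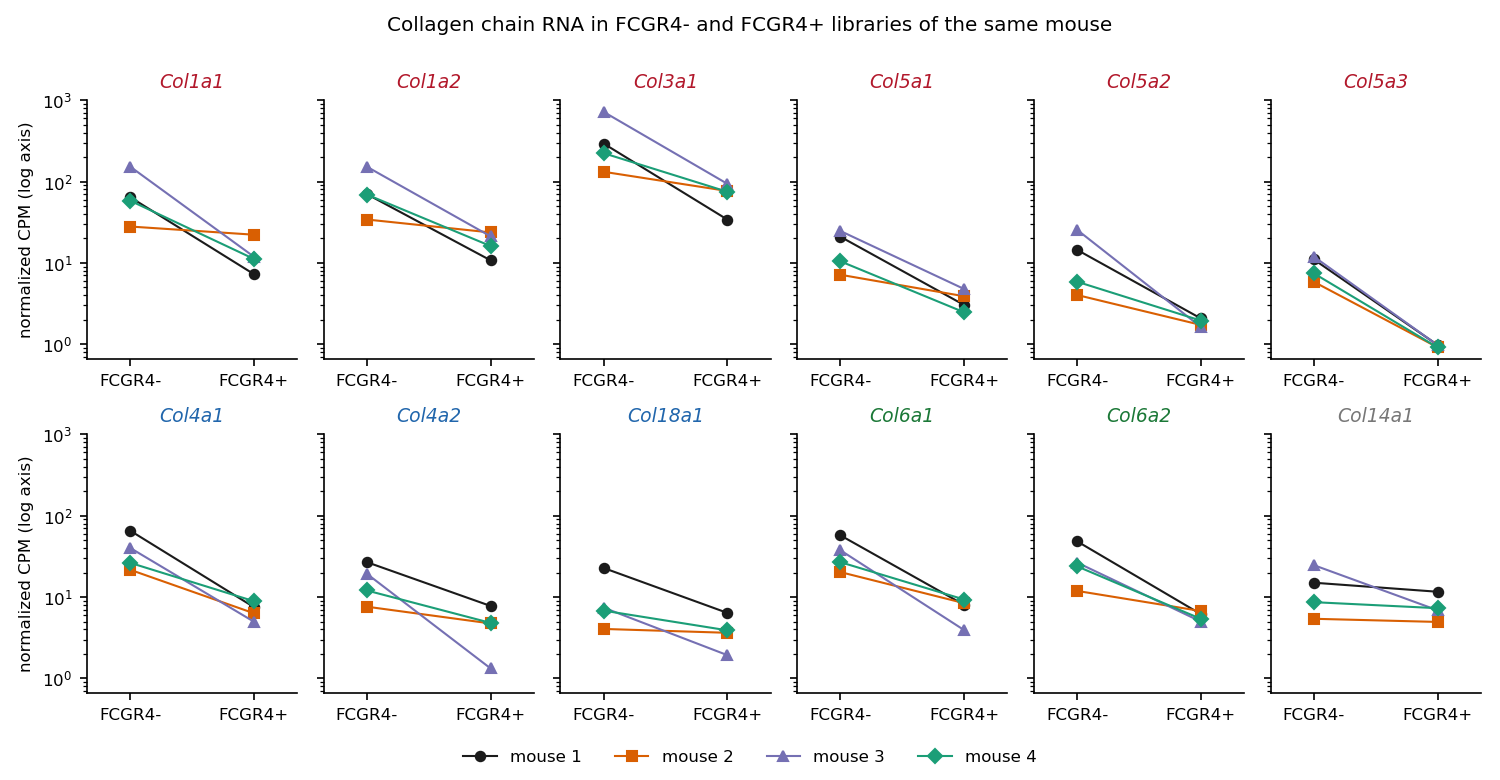
Normalized CPM (log axis) of 12 collagen chain genes in the FCGR4- and FCGR4+ library of each mouse, joined by a line. Red names are fibrillar, blue basement membrane, green type VI, and gray another type. Within the Col1a1 panel the line of mouse 2 is the flattest of the 4, from 28.0 to 22.2 CPM, and all 4 lines of Col5a3 end between 0.913 and 0.977 CPM.

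Among basement membrane chains, Col4a1 alone passed. Col4a1 and Col4a2 encode the α1 and α2 chains of the type IV collagen found in nearly all basement membranes, and the genes lie head to head on chromosome 8. Their annotated starts overlap by 22 bases, chr8:11312805-11312826, shown here on the plus strand because the pair shares this start region.
Col4a1 and Col4a2: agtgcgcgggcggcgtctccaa
Col4a1 (chr8:11198423-11312826, minus strand) was at 65.6, 21.7, 40.2, and 26.4 CPM in FCGR4- and 7.53, 6.32, 4.98, and 8.897 CPM in FCGR4+ libraries. The populations were well apart, and the log2 fold change was -2.37 (SE 0.314, adjusted P = 0.0361, edgeR). Col4a2 (chr8:11312805-11449287, plus strand) was at 26.9, 7.61, 19.3, and 12.1 CPM in FCGR4- and 7.77, 4.74, 1.32, and 4.81 CPM in FCGR4+ libraries. It was lower in each mouse, but the highest FCGR4+ value, 7.77 in mouse 1, was above the lowest FCGR4- value, 7.61 in mouse 2, and the log2 fold change was -1.86 (SE 0.493, adjusted P = 0.227, edgeR). Counting used no strand, so pairs on the shared bases cannot be assigned to one gene.

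The remaining basement membrane chains were low or varied. Col18a1 (chr10:77052178-77166548, minus strand), whose product carries the endostatin fragment, was at 22.8, 4.06, 7.41, and 6.81 CPM in FCGR4- and 6.39, 3.64, 1.93, and 3.899 CPM in FCGR4+ cells. It was lower in each mouse with overlapping populations, and its log2 fold change was -1.20 (SE 0.339, adjusted P = 0.265, edgeR). Col15a1 (chr4:47208161-47313167, plus strand), which encodes a related chain at the edge of basement membranes, was at 3.17, 0.588, 0.649, and 1.29 CPM in FCGR4- and 0.3202, 0.5405, 1.29, and 0.788 CPM in FCGR4+ cells. Mouse 1 had the widest gap, mouse 3 went the other way, and the log2 fold change was -0.71 (SE 0.761, adjusted P = 0.751, edgeR). Without mouse 1 the estimate for Col15a1 was 0.052. Of the chains with a narrower distribution in the body, Col4a5 had a log2 fold change of -0.72 (SE 0.659, adjusted P = 0.716, edgeR) and was higher in FCGR4+ cells of mouse 2, and without mouse 3 the estimate was -0.012. Col4a6, on the X chromosome 1308 bases from Col4a5 and head to head with it, had a log2 fold change of -2.52 (SE 0.744, adjusted P = 0.295, edgeR) at no more than 2.00 CPM. Col4a3 was at 0.249 to 1.20 CPM in FCGR4- cells and at or below 0.0624 CPM in FCGR4+ cells, 0 counts in mouse 3 included, and 4.66% of its 50-base words also occur in other genes.

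Type VI collagen is built mainly of the α1, α2, and α3 chains, and for each of them the populations did not overlap. Col6a1 (chr10:76708792-76726168, minus strand) was at 57.4, 20.3, 37.7, and 26.9 CPM in FCGR4- and 8.02, 8.42, 3.93, and 9.33 CPM in FCGR4+ libraries. Its neighbor Col6a2 (chr10:76595762-76623630, minus strand) was at 48.4, 11.9, 26.6, and 23.9 CPM in FCGR4- and 6.17, 6.74, 4.995, and 5.39 CPM in FCGR4+ libraries. The 2 genes had log2 fold changes of -2.22 (SE 0.366, adjusted P = 0.0633, edgeR) for Col6a1 and -2.11 (SE 0.346, adjusted P = 0.0633, edgeR) for Col6a2. Col6a3 (chr1:90765923-90843971, minus strand), which encodes the large chain whose end is released as endotrophin, was at 14.2, 4.09, 3.26, and 4.27 CPM in FCGR4- and 1.45, 0.603, 0, and 1.16 CPM in FCGR4+ libraries. The FCGR4+ library of mouse 3 held 0 counts, and the log2 fold change was -3.33 (SE 0.804, adjusted P = 0.1803, edgeR). Without mouse 3 the estimate for Col6a3 was -2.66, and it passed (adjusted P = 0.0374, edgeR). The next chains can take the place of α3. Col6a5 (chr9:105856078-105960643, minus strand) was at 2.14, 2.97, 6.55, and 4.68 CPM in FCGR4- and 1.67, 2.203, 1.68, and 3.17 CPM in FCGR4+ libraries, with a log2 fold change of -0.82 (SE 0.356, adjusted P = 0.514, edgeR). Col6a6 (chr9:105687809-105828160, minus strand) was at 0.215, 0.529, 0.9196, and 0.0146 CPM in FCGR4- and 0.303, 0, 0.271, and 0.436 CPM in FCGR4+ libraries. It was lower in FCGR4+ cells of 2 mice and higher in 2, and had a log2 fold change of -0.56 (SE 1.66, adjusted P = 0.918, edgeR). Col6a5 and Col6a6 shared 3.42% and 3.70% of their 50-base words with other genes, and a pair that maps to several places adds a count to each, so a small part of their counts may be shared with near copies. Whether the effect differs between chains was not tested.

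Among the other types, 3 chains were tested and 0 passed in edgeR, where 2 had an unadjusted p under 0.05 (6.67% of all genes were lower at that p), while DESeq2 called 2 lower (4.87% of all genes). Col14a1, whose product binds to the surface of fibrils, had the highest level per kilobase of them, at 15.02, 5.41, 24.7, and 8.66 CPM in FCGR4- and 11.6, 4.95, 6.88, and 7.3002 CPM in FCGR4+ cells. The populations overlapped and the log2 fold change was -0.64 (SE 0.311, adjusted P = 0.554, edgeR), with lower FCGR4+ values in 4 of 4 mice. Col16a1 was at 1.05 to 6.06 CPM in FCGR4- and at most 0.728 CPM in FCGR4+ cells, with a log2 fold change of -3.10 (SE 0.854, adjusted P = 0.253, edgeR) and 0 counts in the FCGR4+ library of mouse 4. Col8a1, a short-chain collagen of vessel walls, was at 0.794 to 4.20 CPM in FCGR4- and at most 1.099 CPM in FCGR4+ cells, with a log2 fold change of -4.26 (SE 1.17, adjusted P = 0.249, edgeR) and 0 counts in the FCGR4+ library of mouse 2. The estimate for Col8a1 was -2.92 without the mouse block, -3.18 without mouse 3, and -5.74 without mouse 4.

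The 22 chains that were not tested were low, with no library above 0.866 CPM. The highest single library was 0.187 for Col2a1, 0.206 for Col11a1, 0.446 for Col24a1, and 0.415 CPM for Col27a1 of the fibrillar types, 0.8298 CPM for Col4a4, and 0.523 CPM for Col6a4. Of the other types, it was 0.866 for Col28a1, 0.647 for Col10a1, and 0.5703 CPM for Col23a1, and between 0.333 and 0.505 CPM for Col7a1, Col8a2, Col12a1, Col20a1, and Col22a1. It did not exceed 0.291 CPM for Col9a1, Col9a2, Col9a3, Col13a1, Col17a1, Col19a1, Col25a1, and Col26a1. Col28a1 had the most counts, 118 over the FCGR4- libraries and 0 in each FCGR4+ library. Against a floor of 3 counts per library its mean CPM was at least 8.81-fold lower in FCGR4+ cells. Without 1 mouse this bound ran from 6.28-fold to 11.7-fold. By the same bound Col25a1 was at least 3.38-fold lower (2.77-fold to 3.78-fold without 1 mouse) and Col24a1 at least 3.45-fold, which fell to 1.88-fold without mouse 1. The FCGR4- library of mouse 2 held 3 counts of Col28a1 and 2 of Col24a1, so for these chains the bound does not hold in that mouse. Such bounds were drawn only for chains with 0 counts in each FCGR4+ library. Col6a4 and Col19a1 also had 0 counts in each FCGR4+ library, but their bounds of 3.00-fold and 1.31-fold rested on 1 FCGR4- library each. Without mouse 3 that of Col6a4 was 0.835, and without mouse 2 that of Col19a1 was 0.7195, so neither gives a direction. Col12a1 had 77 counts in FCGR4- and 1 count in FCGR4+ libraries. Col4a4, which lies head to head with Col4a3 at a distance of 71 bases, had 5, 15, 52, and 3 counts in FCGR4+ and 11, 8, 1, and 5 counts in FCGR4- libraries of mice 1 to 4, so the higher FCGR4+ sum rested on mouse 3. Mean CPM was lower in FCGR4+ cells for 15 of the 22 untested chains and for 37 of all 44.

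Per kilobase of the deposited gene length, which allows levels of different genes to be compared, the order of the leading chains was the same in both populations. Col3a1 came first at 34.8 ± 26.5 CPM per kb in FCGR4- and 7.11 ± 2.58 CPM per kb in FCGR4+ cells (mean ± SD, n = 4). Col1a1 followed at 11.5 ± 8.17 and 2.002 ± 0.972, then Col6a1 at 8.12 ± 3.71 and 1.695 ± 0.547, and Col1a2 at 6.54 ± 4.02 and 1.44 ± 0.461 CPM per kb. Col3a1 was above Col1a1 in all 8 libraries, by a ratio of 2.31 to 5.26, and Col1a1 above Col1a2 in all 8, by a ratio of 1.06 to 1.90. The place of Col6a1 beside these type I chains is not resolved, since its range overlapped both of theirs in each population. Below them came Col4a1, Col6a2, and Col4a2 in FCGR4- cells and Col14a1, Col4a1, and Col4a2 in FCGR4+ cells, with overlapping ranges. The deposited length is the union of all exons of a gene, so these levels depend on the transcripts annotated.

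Ratios between chains of the same molecule overlapped between the populations. The per-kilobase ratio of Col1a1 to Col1a2 was 1.55 to 1.90 in FCGR4- and 1.06 to 1.78 in FCGR4+ libraries, and that of Col6a1 to Col6a2 was 2.14 to 3.24 and 1.49 to 3.29. For Col4a1 to Col4a2 it was 1.85 to 2.52 in FCGR4- libraries and spread from 0.860 to 3.33 in FCGR4+ libraries. By class, fibrillar chains held 66.6 ± 10.5% of the collagen RNA per kilobase in FCGR4- and 61.7 ± 14.6% in FCGR4+ cells (mean ± SD, n = 4), basement membrane chains 13.2 ± 5.22% and 15.7 ± 7.63%, and type VI chains 16.5 ± 5.52% and 14.9 ± 4.23%. Other types held 3.73 ± 0.436% in FCGR4- and 7.71 ± 3.32% in FCGR4+ cells, ranges of 3.28% to 4.33% and 5.19% to 12.5% that did not overlap. Differences between mice were larger than between populations for the fibrillar share, which was lowest in mouse 1 and highest in mouse 3 in both.

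**Figure D3:**
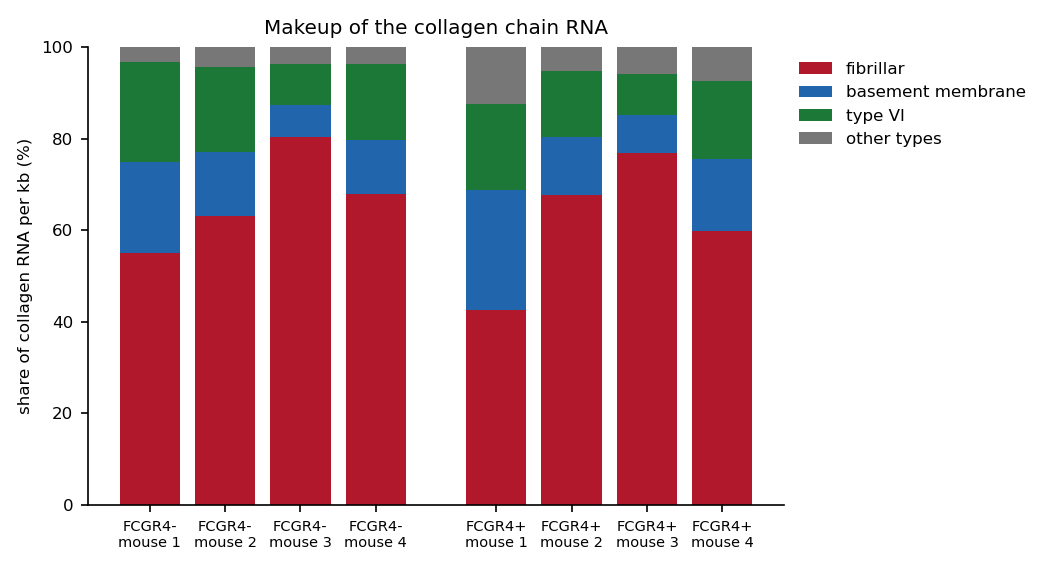
Share of the collagen RNA per kilobase (%, bars sum to 100) held by fibrillar, basement membrane, type VI, and other collagen chains in each library. The fibrillar share is lowest in mouse 1 (55.0% in FCGR4- and 42.5% in FCGR4+) and highest in mouse 3 (80.2% and 76.8%).

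The size of the difference varied between mice. The median log2 ratio of the 22 tested chains was -2.78, -0.85, -2.97, and -1.57 in mice 1 to 4. Mouse 2 had the highest log2 ratio in 13 of 22 chains, and its FCGR4- library was the lowest FCGR4- library in 16 of 22. That library also had the lowest total of all, 35992794 counts, and the part of depth in its values was not tested. By class, the median log2 fold change was -2.11 for 7 tested fibrillar chains, of which 4 passed, -1.86 for 7 basement membrane chains, of which 1 passed, -2.11 for 5 type VI chains, of which 2 passed, and -3.10 for the 3 others, of which 0 passed. The last of these medians was -0.26 without mouse 3 and -0.66 with at least 10 counts asked of all 8 libraries, but over other sets of chains. Without mouse 3, Col9a3 and Col10a1 also entered, while Col8a1, Col16a1, and Col14a1 were at -3.18, -2.77, and -0.26. The value of -0.66 is that of Col14a1 alone, the only chain of other types with 10 counts in all 8 libraries. Mice 1 and 2 carry another animal ID prefix than mice 3 and 4. Within the first prefix 3 chains were lower (Col4a1, Col5a3, and Col6a3, where the fit called 0.624% of all genes lower), and within the second 4 (Col1a2, Col5a1, Col5a3, and Col6a2, where it called 0.337%). Of the 7 calls, Col5a3 alone passed in each fit that left out 1 mouse (0.44% to 0.897% of all genes called lower), with adjusted P values of 0.0106 to 0.0428 in edgeR. Col4a1 passed in 3 of these 4 fits, Col6a1 in 2, and Col1a2, Col3a1, Col5a1, and Col6a2 in 1, the fit without mouse 2.

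Fibroblast markers, and most endothelial, mesothelial, mural, and adipocyte markers, had negative estimates like the collagen chains. A list of 13 fibroblast and preadipocyte surface and regulator genes without matrix genes summed to 159, 71.1, 181, and 94.3 CPM in FCGR4- libraries of mice 1 to 4 and to 35.6, 23.4, 27.7, and 33.4 CPM in FCGR4+ libraries. Of 12 tested, 6 were lower in FCGR4+ cells (Pdgfra, Pdgfrb, Dpp4, Pi16, Cd34, and Scara5), with a median log2 fold change of -1.91, and of all 13 only Twist2, which was not tested, had a library with 0 counts (FCGR4+ cells of mice 1 and 4). For this list and those below, the shares of all genes tested were 1.19% lower in edgeR, 6.67% lower at an unadjusted p under 0.05, and 4.87% lower in DESeq2. In the 4 fits without 1 mouse, Dpp4 and Cd34 passed in 0 (adjusted P of 0.113 to 0.146 and 0.113 to 0.167 in edgeR), Pdgfra and Pi16 in 1, and Pdgfrb and Scara5 in 2, and without the mouse block Pdgfrb and Dpp4 alone passed. The FCGR4-/FCGR4+ ratio of the sum was 4.47, 3.04, 6.54, and 2.82 in mice 1 to 4, highest in mouse 3 as for collagen but lowest in mouse 4, where for collagen it was lowest in mouse 2. Endothelial markers summed to 17.9 to 31.3 CPM in FCGR4- and 11.8 to 25.6 CPM in FCGR4+ libraries, with 9 of 10 estimates negative (median log2 fold change -1.53), 0 of 10 passing, and 3 at an unadjusted p under 0.05 in edgeR, and 2 lower in DESeq2. The FCGR4-/FCGR4+ ratio of the endothelial sum was 1.40, 2.26, 1.87, and 0.70 in mice 1 to 4. Of 8 mesothelial markers tested, Msln alone passed, as it did in 1 of the 4 fits without 1 mouse and not without the mouse block (adjusted P of 0.864 in edgeR), 7 of 8 estimates were negative (median log2 fold change -1.45), and sums were 5.61 to 50.9 and 1.23 to 10.5 CPM. Their FCGR4-/FCGR4+ ratio of sums was 2.69, 4.58, 5.38, and 1.03 in mice 1 to 4. Mural markers summed to 8.14 to 17.0 and 4.85 to 9.67 CPM, with 0 of 9 passing and 2 at an unadjusted p under 0.05 in edgeR, and 2 lower in DESeq2. Here 7 of 9 estimates were negative (median log2 fold change -0.08). The FCGR4-/FCGR4+ ratio of the mural sum was 1.36, 1.59, 3.50, and 1.98 in mice 1 to 4. Adipocyte markers summed to 84.3 to 161 CPM in FCGR4- and 127 to 196 CPM in FCGR4+ libraries, with 0 of 9 passing and 1 at an unadjusted p under 0.05 in edgeR, and 0 passing in DESeq2. Although 7 of 9 adipocyte estimates were negative (median log2 fold change -0.31), the FCGR4-/FCGR4+ ratio of the sum was 1.13, 0.79, 0.43, and 0.61 in mice 1 to 4. At least 1 library was at 0 counts for Tie1, Tek, Emcn, Esam, and Robo4 of the endothelial list, Krt8 and Krt18 of the mesothelial list, and Myh11, Notch3, Kcnj8, Abcc9, and Tagln of the mural list, and Bnc1, a mesothelial marker, was at 0 in all FCGR4+ libraries. The sort kept CD45+ CD11b+ cells, and the part of these other cell types in the collagen difference was not tested.

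**Figure D4:**
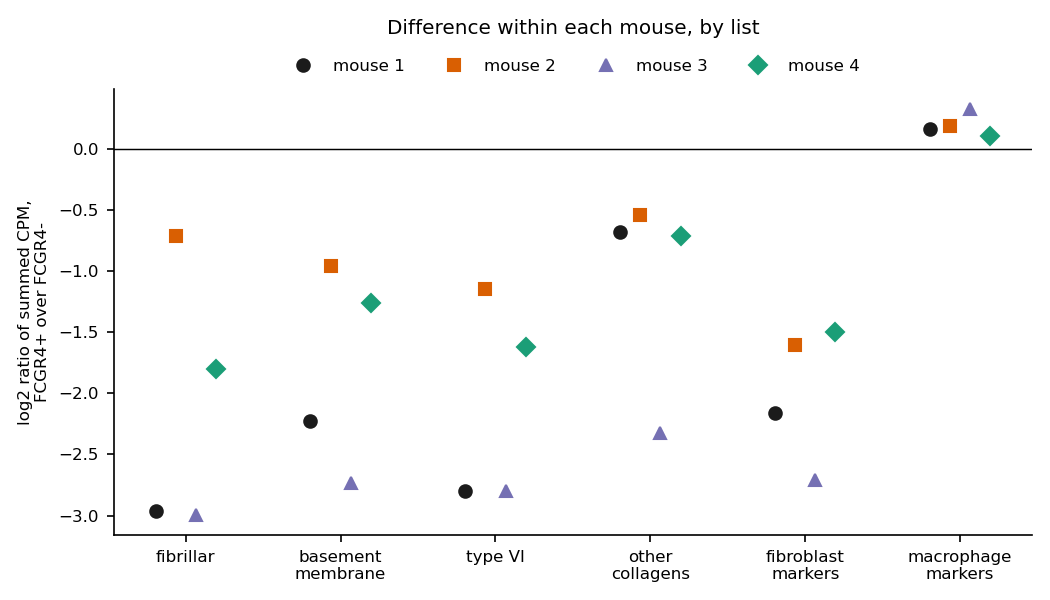
Log2 ratio (FCGR4+ over FCGR4-) of summed CPM within each mouse for the 4 collagen classes, the fibroblast and preadipocyte markers, and the macrophage markers. Collagen and fibroblast sums are below 0 in all 4 mice, with mouse 3 the lowest or close to it, and macrophage markers lie between 0.11 and 0.33.

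The genes for modifying, folding, and processing collagen were counted as a further list. Of 37 biosynthesis genes, 33 were tested, 2 were lower in FCGR4+ cells (1.19% of all genes tested), and 0 were higher, with a median log2 fold change of -0.87. In edgeR 15 had an unadjusted p under 0.05, all lower (6.67% of all genes), and DESeq2 called 13 lower (4.87% of all genes) and 0 higher. Bmp1, whose product cuts the end off procollagen, was at 8.21, 3.62, 21.1, and 5.02 CPM in FCGR4- and 1.16, 1.31, 1.66, and 0.705 CPM in FCGR4+ libraries, with a log2 fold change of -2.72 (SE 0.382, adjusted P = 0.0427, edgeR). Loxl1, a crosslinking oxidase, was at 9.85, 4.59, 25.8, and 9.096 CPM in FCGR4- and 1.25, 2.203, 3.19, and 2.49 CPM in FCGR4+ libraries, with a log2 fold change of -2.25 (SE 0.374, adjusted P = 0.0647, edgeR). Neither gene overlapped between populations, and of the 4 fits without 1 mouse Bmp1 passed in 2 and Loxl1 in 1. Without the mouse block neither passed (adjusted P of 0.113 and 0.156 in edgeR). Serpinh1, a chaperone specific to collagen, named here after its values were seen, was at 33.7, 11.5, 67.9, and 23.3 CPM in FCGR4- and 4.55, 5.55, 5.46, and 10.6 CPM in FCGR4+ cells, with a log2 fold change of -2.18 (SE 0.476, adjusted P = 0.145, edgeR). The 4 genes of the list with the highest level per kilobase also serve proteins other than collagen, and their log2 fold changes were -0.33 (SE 0.181) for P4hb, a subunit of prolyl hydroxylase and a general folding enzyme, -0.04 (SE 0.122) for the glycosyltransferase gene Colgalt1, -0.08 (SE 0.124) for Sec13, a coat protein of export vesicles, and -0.01 (SE 0.128) for the isomerase gene Ppib. None of these 4 passed in edgeR or DESeq2.

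Collagen receptors went both ways. Of 12 receptor genes 8 were tested, with 1 lower and 1 higher in FCGR4+ cells (7 at an unadjusted p under 0.05 in edgeR, and 5 lower and 2 higher in DESeq2). Among all genes tested edgeR called 1.19% lower and 0.0819% higher. DESeq2 called 4.87% of them lower, and 192 of 17095 higher. Mrc2, which encodes an uptake receptor for collagen fragments, was at 6.703, 1.82, 4.27, and 3.58 CPM in FCGR4- and 0.3202, 0.0831, 0.0798, and 0.726 CPM in FCGR4+ libraries, with a log2 fold change of -4.11 (SE 0.615, adjusted P = 0.0516, edgeR). It passed in 2 of the 4 fits without 1 mouse and not without the mouse block (adjusted P of 0.128 in edgeR). Lair1, an inhibitory leukocyte receptor that binds collagen, was at 254, 154, 196, and 199.6 CPM in FCGR4- and 408, 269, 293, and 294 CPM in FCGR4+ libraries. All FCGR4+ values lay above all FCGR4- values, and its log2 fold change was 0.66 (SE 0.125, adjusted P = 0.0949, edgeR). The call on Lair1 was lost without the mouse block (adjusted P of 0.489 in edgeR) and in each fit without 1 mouse (0.205 to 0.297). Mrc1, the mannose receptor that also takes up collagen, was at 516, 210.3, 684, and 434 CPM in FCGR4+ and 354, 166, 273, and 304 CPM in FCGR4- libraries, higher in 4 of 4 mice, with a log2 fold change of 0.68 (SE 0.188, adjusted P = 0.258, edgeR). Itgb1, the shared β1 chain of collagen-binding integrins, had a log2 fold change of 0.08 (SE 0.131, adjusted P = 0.839, edgeR). Ddr2, a receptor tyrosine kinase for fibrillar collagen, had one of -1.52 (SE 0.335, adjusted P = 0.149, edgeR).

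Enzymes that cut collagen formed the last list. Of 11 genes 10 were tested, 4 were lower in FCGR4+ cells, and 0 were higher (4 at an unadjusted p under 0.05 in edgeR, all lower, and 4 lower and 0 higher in DESeq2). Among all genes tested 1.19% were lower in edgeR, 6.67% were lower at an unadjusted p under 0.05, and 4.87% were lower in DESeq2. The gelatinase gene Mmp9 was at 17.2, 32.9, 87.7, and 55.5 CPM in FCGR4- and 4.63, 6.84, 9.88, and 2.302 CPM in FCGR4+ libraries, with a log2 fold change of -2.94 (SE 0.439, adjusted P = 0.0516, edgeR). The other gelatinase gene, Mmp2, was at 19.9, 13.6, 35.1, and 18.4 CPM in FCGR4- and 5.73, 7.28, 4.47, and 5.58 CPM in FCGR4+ libraries, with a log2 fold change of -1.85 (SE 0.327, adjusted P = 0.0722, edgeR). Both kept the populations apart. Mmp8, the neutrophil collagenase, had a log2 fold change of -1.72 (SE 0.316, adjusted P = 0.0831, edgeR) and was lower in each mouse although its populations overlapped, and Fap, a fibroblast protease, had one of -2.71 (SE 0.518, adjusted P = 0.0949, edgeR). In the 4 fits without 1 mouse, Mmp9 passed in 3, Mmp2 in 2, Mmp8 in 1, and Fap in 0 (adjusted P of 0.154 to 0.283 in edgeR), and without the mouse block Mmp2 alone passed. The lysosomal cathepsins had the highest levels per kilobase of the list, and none passed in edgeR or DESeq2. Ctsb was at 10435 to 20431 CPM in FCGR4+ and 9413 to 18775 CPM in FCGR4- cells, with a log2 fold change of 0.12 (SE 0.111, adjusted P = 0.721, edgeR). Ctsl had a log2 fold change of 0.53 (SE 0.235, adjusted P = 0.5202, edgeR) and Ctsk, the cathepsin most active on collagen, one of 0.22 (SE 0.301, adjusted P = 0.812, edgeR). The summed mast cell markers differed 12.8-fold to 76.8-fold between the populations of the same mouse, and their part in these differences was not tested.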

How the data were processed

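Bulk RNA-Seq was done on FCGR4+ and FCGR4- eWAT macrophages (CD45+ CD11b+ cells without CD3, B220, Ly6G, and SiglecF) of 4 mice, sorted into trizol. The authors mapped read pairs to mm10 with STAR and counted them with featureCounts 1.6.3 on GENCODE release M18, and the deposited values are these counts, not normalized. By the file header, a pair with several mapped places added a count to each of them, and strand was ignored. The gene length beside the counts is the authors' value (another unit, in bases). Every per-sample column was used.

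Population and mouse came from the labels. The 2 libraries of a mouse come from 1 animal, and their deviations from the population means correlated at 0.291 to 0.428 over 17095 genes. Symbols were found for 54079 of 54146 gene IDs in GENCODE annotation of the same build. The 17095 genes reaching 10 counts in 4 or more of the 8 libraries were tested with edgeR 4.0.16 (R 4.3.3) by the quasi-likelihood test at its defaults, with TMM scaling, mouse as a block, Benjamini-Hochberg adjustment over all genes tested, and a threshold of 0.1. Fits without 1 mouse asked for at least 10 counts in 3 libraries and fits of 2 mice in 2. The SE is the log2 fold change over the square root of F. The floor of 3 counts covers counting error only. DESeq2 1.42.0 with the same paired model, the fit without a block, RLE factors, library size alone, other filters, a threshold of 0.05, edgeR's newer method, and each ID prefix alone were alternatives.

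Chains past the threshold and all chains of types I, III, V, VI, XV, XVIII, and IV (α1 and α2) are given in full, other tested chains by level or range, and genes of the partner lists where they passed or were among the 4 with the highest level. The members and all lists were chosen with earlier results of these data known. Promoter sequences are from RefSeq tables (GRCm38.p6), which held windows for 35 of 44 members. Col1a1, Col2a1, Col4a3, Col5a2, Col9a3, Col12a1, Col14a1, Col22a1, and Col26a1 had none. Protein sequences were not used here.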

Additional observations from a re-analysis of the deposited data

Results flagged for a closer look

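The log2 ratio (FCGR4+ over FCGR4-) per mouse was examined for a single mouse far from the other 3 in each of the 22 tested chains. Col6a5, a chain that can take the place of α3 in type VI collagen, was flagged because mouse 3 had a ratio of -1.94 while the other mice lay between -0.56 and -0.35, a gap of 0.871 of the whole range. Col14a1, which encodes a fibril-associated collagen, was flagged for the same mouse, with -1.84 against -0.37 to -0.13 in the others and a gap of 0.859 of the range. About 1.1 such flags are expected by chance among 22 groups, and 2 were found. In both chains the FCGR4- library of mouse 3 was the highest of its population, as it was in 11 of 22 tested chains.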

How the results depend on the processing

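Against 7 collagen chains lower in FCGR4+ cells, the count was 4 with no replicate block (0.275% of all genes called lower), 16 in DESeq2 (4.87%), 15 with edgeR's newer method (3.35%), 17 with no filter on low counts (2.35%), 2 at a threshold of 0.05 (0.433%), 3 in mice 1 and 2 alone (0.624%), 4 in mice 3 and 4 alone (0.337%), and 1 to 8 when 1 mouse was left out: 1 without mouse 1 (0.44%), 8 without mouse 2 (0.641%), 4 without mouse 3 (0.897%), and 2 without mouse 4 (0.51%). RLE factors gave 6, without Col3a1 (1.18%), library size alone 8 (1.38%), and the filter on all 8 libraries 9 (1.7%). No setting called a chain higher. Biosynthesis genes lower, 2 in the report, numbered 0 with no replicate block, 13 in DESeq2, 11 with the newer method, 14 with no filter, 7 with at least 10 counts in all 8 libraries, 0 to 3 without 1 mouse, 0 in mice 1 and 2, 1 in mice 3 and 4, and 1 at 0.05. Receptor genes lower, 1 in the report, numbered 0 with no replicate block, 5 in DESeq2, 3 with the newer method, 5 with no filter, 2 with the filter on all libraries, 0 to 1 without 1 mouse, 0 in mice 3 and 4, and 0 at 0.05. Receptor genes higher, 1 in the report, numbered 2 in DESeq2 and with no filter, and 0 with no replicate block, with library size alone, without any 1 mouse, in either prefix, and at 0.05. Cleavage genes lower, 4 in the report, numbered 1 with no replicate block, 1 to 2 without 1 mouse, 1 in each prefix, and 0 at 0.05. The median of the other types, -3.10 in the report, was -1.84 with no filter, -0.66 with the filter on all libraries, -1.81 in mice 1 and 2, and -3.75 to -0.26 without 1 mouse. These medians cover different sets of chains, since the chains tested changed with the filter and the mice. Over the fits without 1 mouse, Col8a1 lay at -5.74 to -3.18, Col16a1 at -3.85 to -2.51, and Col14a1 at -0.78 to -0.26.

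Single chains turned sign as follows: Col4a5 to 0.072 in mice 1 and 2, Col6a6 to 0.76 without mouse 2, 0.21 without mouse 3, and 1.04 in mice 3 and 4 (-1.87 to 0.76 over the fits without 1 mouse), Col11a2 to 0.086 without mouse 4 (-0.72 to 0.086), and Col15a1 to 0.052 without mouse 1 (-1.35 to 0.052) and 0.12 in mice 3 and 4. The cause was not tested. With 4 mice and chains of a few CPM, the precision rests on the spread between animals. Library size alone moved the median of all genes by -0.09.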
